A study of Mus musculus with 35 samples.

Results

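Single wells of mouse small-intestinal organoids sorted for Reg4 were set against wells sorted for Lgr5. Reg4 encodes a secreted C-type lectin of intestinal secretory cells, and Lgr5 encodes the R-spondin receptor that marks dividing crypt stem cells. The members were chosen by table and depth: all wells of the Reg4-positive and Lgr5-positive organoid tables with at least 1500 counts of genes and at most 100000. This left 227 wells of 384, namely 75 of Reg4-positive replicate 1, 78 of Reg4-positive replicate 2 and 74 of the 1 Lgr5-positive library. The matched tables of the whole series held 1680 wells, of which 1206 were kept.

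A Reg4-dsRed-knock-in mouse gave the organoids of the Reg4-positive wells, and a Lgr5-GFP-DTR mouse those of the Lgr5-positive wells. Both were on the C57BL/6 background. Wells of cells taken at random from wild-type C57BL/6 whole organoids (276 and 209 kept wells of 2 passages) entered the test so that the spread between libraries could be estimated. All organoids grew in Matrigel from isolated crypts with EGF, RspoI and Noggin and were dissociated with TrypLE. Cells were sorted into Trizol with spike-in RNA and read by CEL-seq, which counts the 3′ ends of transcripts with a random barcode of 4 bases. Each genotype is 1 culture and replicates are passages of it, so the p-values cover passage-to-passage spread alone. Sort, genotype, culture and plate cannot be told apart between the Reg4-positive and the Lgr5-positive wells. Both alleles sit at the genes used for sorting, so the levels of Reg4 and Lgr5 describe the sorts and are no finding. Samples I to III per Reg4-positive replicate are named in the labels; 1 plate was analysed for replicate 1 and 2 plates for replicate 2. The Lgr5-positive table was matched to its label by its name alone.

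Crypt stem cells divide under Wnt and Notch signals and give rise to absorptive and secretory daughters. Low Notch activity releases Atoh1, the factor that commits a cell to the secretory lineage. Its descendants are Paneth cells, which release antimicrobial defensins and lysozyme into the crypt, goblet cells, which make mucus, and enteroendocrine cells, which store peptide hormones in dense granules.

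Depth differed between the sorts. Totals over kept wells were 495327 and 545779 counts for the Reg4-positive replicates, against 905272 for the Lgr5-positive library. The median kept well held 5148 and 5650 counts in the Reg4-positive replicates, against 11905.5 in the Lgr5-positive library. Of plate I of Reg4-positive replicate 2 only 9 of 96 wells were kept. Spike-in RNA made up 26.7% of counts over all 96 wells of that plate, but 4.53% over its 9 kept wells. Over the kept wells it made up 5.05% in plate II of that replicate and 4.61% in the Lgr5-positive library. Plate II of that replicate held 3 wells above 100000 counts, which carried 49.3% of all counts in the replicate's wells past the minimum. They held 179260, 162627 and 188892 counts and were left out. None of the 1206 kept wells was identical to another (0 pairs). Levels below are CPM, a gene's counts scaled to a common library total, with TMM scaling. Since CEL-seq tags transcript ends, CPM are not divided by length.

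Promoter sequences, chosen after the values were seen, of members that were low or high together are shown so that motifs known from such genes can be read in them. They come from RefSeq (GRCm38.p6) and run 5′ to 3′ from 250 bases before to 50 bases after the annotated start. Cdc20 (chr4:118437294-118437593, minus strand), the activator of the anaphase-promoting complex, and Ccnb2 (chr9:70421505-70421804, minus strand), a mitotic cyclin, were among the cell cycle genes lowest in Reg4-positive libraries relative to the Lgr5-positive library. Capitals mark the CCAAT box, which binds NF-Y, and TTTGAA, the cell cycle homology region.
Cdc20: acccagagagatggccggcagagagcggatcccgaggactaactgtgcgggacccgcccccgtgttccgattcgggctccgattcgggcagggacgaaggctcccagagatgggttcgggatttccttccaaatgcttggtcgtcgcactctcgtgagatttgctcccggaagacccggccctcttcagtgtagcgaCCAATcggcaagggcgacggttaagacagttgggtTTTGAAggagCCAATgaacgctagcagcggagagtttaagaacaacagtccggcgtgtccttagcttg
Ccnb2: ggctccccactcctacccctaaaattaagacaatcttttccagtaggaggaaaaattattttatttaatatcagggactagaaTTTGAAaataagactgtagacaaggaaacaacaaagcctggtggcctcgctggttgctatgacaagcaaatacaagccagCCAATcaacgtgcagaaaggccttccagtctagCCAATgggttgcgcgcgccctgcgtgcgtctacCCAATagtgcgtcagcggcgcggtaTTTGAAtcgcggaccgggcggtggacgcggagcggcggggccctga

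Defa20 (chr8:21509008-21509307, plus strand) and Defa21 (chr8:21025295-21025594, plus strand) encode alpha-defensins of Paneth granules. Capitals mark ATCAAAG, a form of the motif read by the Wnt effectors of the TCF family.
Defa20: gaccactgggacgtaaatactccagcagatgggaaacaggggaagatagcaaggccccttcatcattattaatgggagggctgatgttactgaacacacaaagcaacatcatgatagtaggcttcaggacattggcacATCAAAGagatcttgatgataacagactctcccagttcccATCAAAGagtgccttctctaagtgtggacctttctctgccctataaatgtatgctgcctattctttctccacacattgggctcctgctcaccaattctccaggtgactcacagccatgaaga
Defa21: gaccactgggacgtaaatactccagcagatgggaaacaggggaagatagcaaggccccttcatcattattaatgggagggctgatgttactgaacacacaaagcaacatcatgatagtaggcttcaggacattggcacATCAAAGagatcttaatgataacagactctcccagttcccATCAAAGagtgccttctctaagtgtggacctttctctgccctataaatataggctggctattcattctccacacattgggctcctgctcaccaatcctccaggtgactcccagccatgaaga
The pair share 293 of 300 bases (97.7%), and each holds ATCAAAG 112 and 72 bases before the start. Reads of such near-identical genes may be split between copies, so levels of single alpha-defensins are uncertain.

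Each motif was searched in both directions, and no 2 marked matches overlap. CCAAT stood in the promoter of 21 of 25 cell cycle genes with a promoter in the table (84%), against 41.1% of 27025 genes. TTTGAA stood in 12 of those 25 (48%), against 20.2% of all genes. ATCAAAG stood in 4 of 4 matched alpha-defensins, 2 of 14 other Paneth genes, 2 of 13 Wnt and Eph genes, 1 of 25 cell cycle genes and 0 of 19 endocrine granule genes, against 4.29% of all genes. TATAAA stood in 4 of 4 alpha-defensins and 0 of 25 cell cycle genes, against 15.7% of all genes. Promoters were matched for 25 of 30 tested cell cycle genes and 4 of 25 tested alpha-defensins. The 4 include the near-identical Defa20 and Defa21, so 4 of 4 does not stand for 4 separate observations and cannot be weighed against the share of all genes. These matches describe letters and not binding.

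Reg4 (chr3:98222156-98236748, plus strand) came to 2479 and 15581 CPM in Reg4-positive replicates 1 and 2, against 227 CPM in the Lgr5-positive library. Its counts lay in 62 of 75 and 76 of 78 Reg4-positive wells, against 18 of 74 Lgr5-positive wells. With every well thinned to 1500 counts these numbers were 41 and 68, against 5. The median well held 3 and 22.5 Reg4 counts in the Reg4-positive replicates, and 0 in the Lgr5-positive library, where 1 well gave 122 of the 243 counts.

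Lgr5 (chr10:115450311-115587780, minus strand) came to 184 and 36.8 CPM in the Reg4-positive replicates, against 237 CPM in the Lgr5-positive library. Reg4-positive replicate 1 was thus close to the Lgr5-positive level and replicate 2 far below it. Lgr5 counts lay in 30 of 75 and 11 of 78 Reg4-positive wells, against 65 of 74 Lgr5-positive wells, or 13 and 7, against 24, after thinning. Wells with counts of both genes numbered 24 and 11 in the Reg4-positive replicates, against 15 in the Lgr5-positive library.

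**Figure D1:**
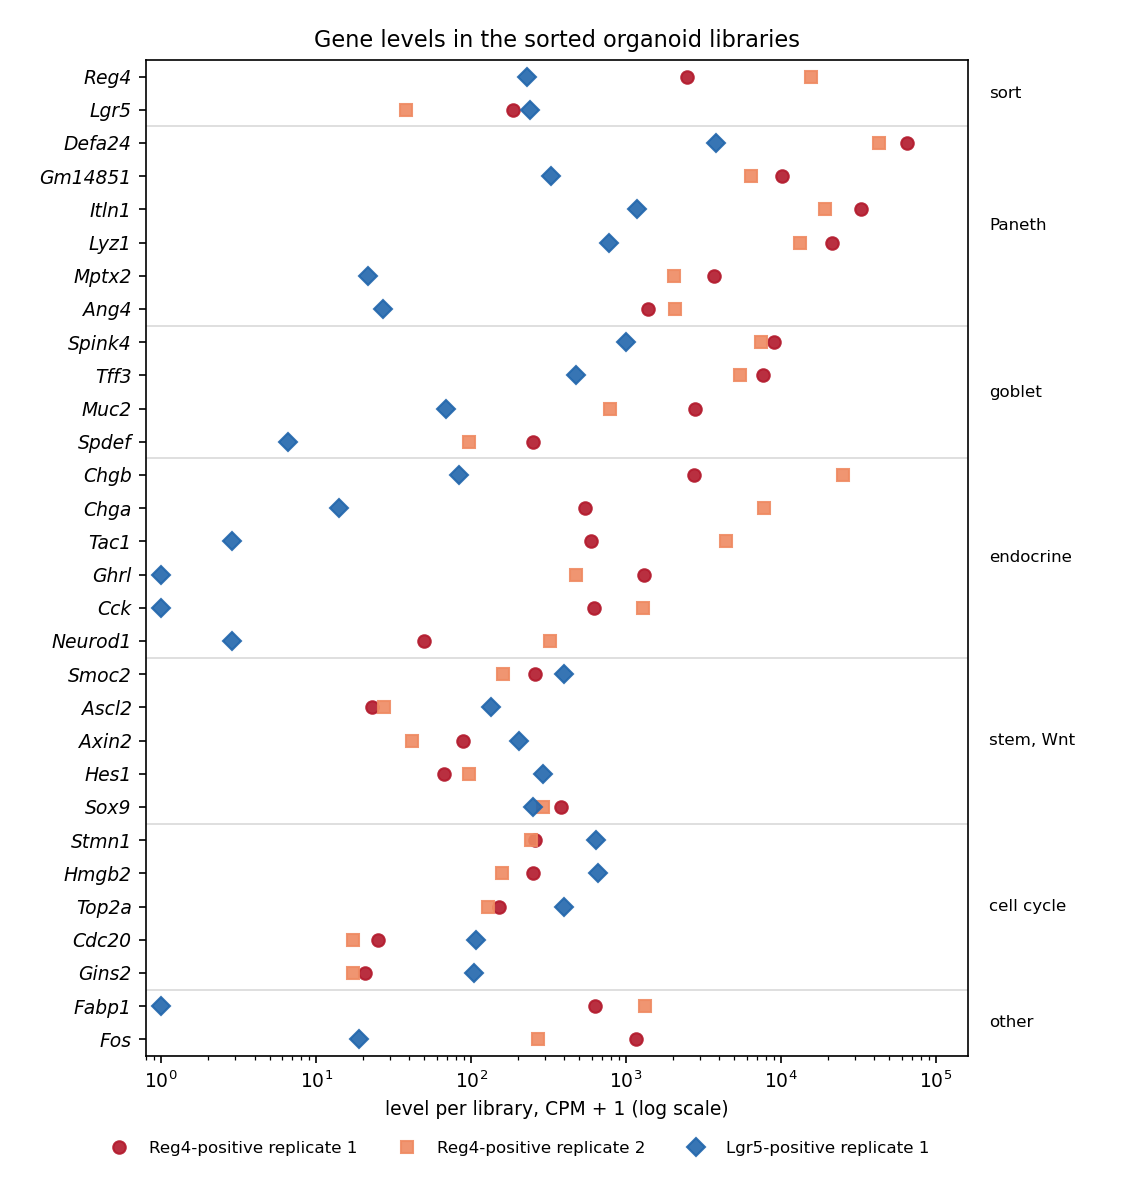
Level of 30 genes in each library, as CPM + 1 on a log axis, for Reg4-positive replicates 1 (circles) and 2 (squares) and the Lgr5-positive library (diamonds). Paneth, goblet and endocrine genes sit to the right in Reg4-positive libraries (Defa24 at 65156 and 42716 CPM, against 3831 CPM), and cell cycle genes sit to the left (Hmgb2 at 250 and 157 CPM, against 658 CPM).

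The question was which genes differ between secretory-marked and stem-marked organoid cells. With 2 Reg4-positive libraries and 1 Lgr5-positive library, edgeR's quasi-likelihood test called 0 of 10275 tested genes higher (0%) and 0 lower (0%) at a false discovery rate of 0.05. For the 1 Lgr5-positive library the fit took the spread seen within the remaining organoid groups. The smallest adjusted p was 0.190, shared by 13 genes. At an unadjusted p under 0.05 stood 1577 genes (15.3%), 1044 of them higher in Reg4-positive libraries (10.2%) and 533 lower (5.19%). DESeq2 on the same sums called 162 genes higher and 8 lower. The edgeR count was not stable to single libraries. It was 290 higher and 17 lower without Reg4-positive replicate 1, and 69 and 5 without Reg4-positive replicate 2. Leaving out a whole organoid library gave 380 and 49 (replicate 1 left out) and 323 and 31 (replicate 2 left out).

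Since no gene passed the test, groups of genes are described by a rule chosen after the values were seen. A gene is past 2-fold when both Reg4-positive libraries lie at least 2-fold above, or both at least 2-fold below, the Lgr5-positive library, after 5 CPM are added to each level. Of all tested genes 775 (7.54%) were past 2-fold above and 416 (4.05%) below. With the 3 wells above 100000 counts kept, these were 542 (5.27%) and 202 (1.97%). List counts under other settings are to be read beside the counts over the same 10275 genes. Those were 1604 above and 1115 below with replicate 2 as the only Reg4-positive library, and 1212 and 897 with replicate 1 alone. With thinning they were 1223 and 1140, and with scaling by total counts 512 and 908. The median log2 ratio over all tested genes was 0.08, with a level at the limit of 3 counts where a group had none. Genes enter the test only with counts in some library, so the counts of tested members describe those members and not whole lists. A member with no count in the Lgr5-positive library could not lie below it. For members on the same side of that library at any size, the share of all tested genes was not counted. Those counts can therefore not be set against a general rate. Summed levels do not tell more wells of a kind apart from more RNA per well.

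**Figure D2:**
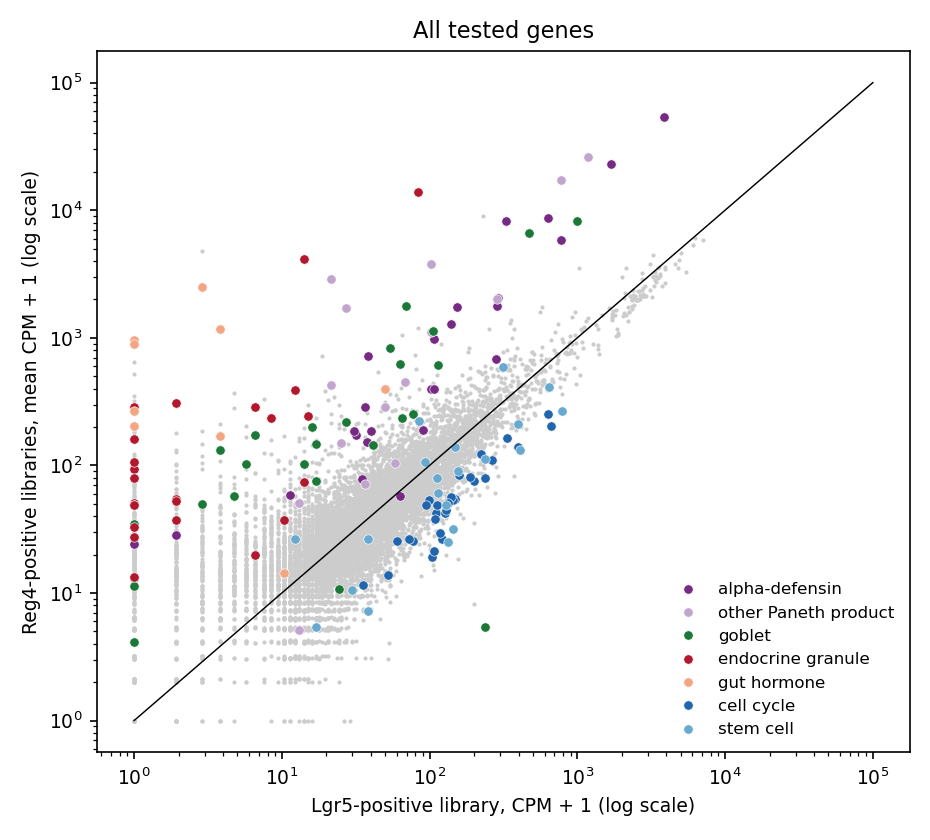
Mean CPM + 1 of the 2 Reg4-positive libraries against CPM + 1 of the Lgr5-positive library for 10275 tested genes on log axes, with a line of equality. Members of the Paneth, goblet, granule and hormone lists lie mostly above the line, and all 30 cell cycle genes lie below it.

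Paneth products were higher in Reg4-positive libraries. The alpha-defensins together held 11.4% and 8.82% of counts in the Reg4-positive replicates, against 1.08% in the Lgr5-positive library. With the 3 large wells kept, the share in Reg4-positive replicate 2 was 4.89%. Of 25 tested members (29 in the table) 19 were past 2-fold above and 0 below, with a median log2 ratio of 2.83. With the large wells kept, 16 were past 2-fold above. Defa24 (chr8:21734494-21735471, plus strand) came to 65156 and 42716 CPM in the Reg4-positive libraries, against 3831 CPM in the Lgr5-positive library. The log2 fold change of Defa24 was 3.82 ± 1.63 (SE), and its adjusted p was 0.326 in edgeR. Both Reg4-positive libraries lay above the Lgr5-positive one. In the Lgr5-positive library 1 well gave 1597 of its 4098 counts, and 3 wells gave 3415. That value of 1597 is the ceiling of the barcode correction, reached by Defa24 in 3 wells of Reg4-positive replicate 2 and 1 Lgr5-positive well, so its level is a lower estimate. Gm15284 stood at 24937 and 20817 CPM, against 1693 CPM. Gm14851, another gene of the alpha-defensin list, stood at 10211 and 6373 CPM, against 328 CPM, with a log2 fold change of 4.66 ± 0.74 (SE) and adjusted p = 0.201.

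Most other Paneth products lay on the same side. Of 16 tested members 13 were past 2-fold above and 0 below (median log2 ratio 2.78), against 7.54% and 4.05% of all tested genes. Above the Lgr5-positive library in both Reg4-positive libraries at any size lay 14 of 16, a count with no share of all tested genes beside it. Lyz1, the lysozyme of Paneth granules, came to 21327 and 13233 CPM in Reg4-positive replicates, against 770 CPM in the Lgr5-positive library (log2 4.49 ± 1.96 SE, adjusted p = 0.331). It reached the barcode ceiling in 1 well of Reg4-positive replicate 1, so that level is a lower estimate. Itln1, a lectin that binds microbial sugars, stood at 32944 and 19144 CPM, against 1176 CPM in the Lgr5-positive library. Mptx2, a pentraxin, stood at 3697 and 2034 CPM, against 20.6 CPM. Ang4, an antimicrobial ribonuclease, stood at 1379 and 2062 CPM, against 26.2 CPM. The 2 Reg4-positive values were closer to each other than to the Lgr5-positive value for each of these genes. Wnt3, the Wnt ligand that Paneth cells give to stem cells, came to 43.9 and 55.1 CPM in the Reg4-positive libraries, against 12.2 CPM. Nupr1, a stress-induced chromatin protein, stood at 382 and 466 CPM, against 20.6 CPM, and was 1 of the 13 genes at the smallest adjusted p of 0.190. Tgfa, an EGF receptor ligand, was lower in both, at 2.20 and 6.13 CPM, against 12.2 CPM in the Lgr5-positive library. Reg3g, an antibacterial lectin, lay on either side, at 169 and 36.8 CPM, against 57.0 CPM. With the 3 large wells kept, 9 of 16 were past 2-fold above.

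Goblet genes followed the same direction. Of 25 tested members 19 were past 2-fold above and 1 below (median log2 ratio 3.19). With the 3 large wells kept, 16 were past 2-fold above and 1 below. In the Lgr5-positive library 3 members had no count and could not lie below it. Tff3, the trefoil peptide of mucus, came to 7698 and 5463 CPM in the Reg4-positive libraries, against 472 CPM in the Lgr5-positive library (log2 3.80 ± 1.10 SE, adjusted p = 0.251). Muc2, the gel-forming mucin, stood at 2769 and 786 CPM, against 68.2 CPM, and had counts in 62 of 75 and 33 of 78 Reg4-positive wells, against 8 of 74 Lgr5-positive wells. Spdef, a goblet and Paneth transcription factor, stood at 248 and 96.0 CPM, against 5.61 CPM. Spink4, a goblet and Paneth peptide, stood at 9004 and 7474 CPM, against 997 CPM. All 4 were higher in replicate 1 than in replicate 2. Retnlb, a resistin-like secreted protein, was the 1 member past 2-fold below, at 8.78 and 0 CPM in the Reg4-positive libraries, against 237 CPM in the Lgr5-positive library. Its Lgr5-positive counts came from 6 wells, and 3 of them gave 240 of 254.

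Endocrine genes were highest in Reg4-positive replicate 2. Of 25 tested granule genes 19 were past 2-fold above and 0 below (median log2 ratio 4.26), against 7.54% and 4.05% of all tested genes. With the 3 large wells kept, 18 were past 2-fold above. Of the 25, 12 had no count in the Lgr5-positive library and could not lie below it. All 25 lay above that library in both Reg4-positive libraries at any size, but some by very few counts. Vgf, Syp and Cadps each had 1 count in replicate 1, against 0 in the Lgr5-positive library. Chgb (chr2:132781278-132795079, plus strand), a granin that fills secretory granules, came to 2729 and 25281 CPM in Reg4-positive replicates 1 and 2, against 82.3 CPM in the Lgr5-positive library. Chga, the other main granin, stood at 540 and 7797 CPM, against 13.1 CPM. In both cases replicate 2 was far above replicate 1, and the fitted errors were large: log2 7.41 ± 3.55 (SE) for Chgb and 8.30 ± 3.64 (SE) for Chga, with adjusted p = 0.363 and 0.331. Pcsk1, a prohormone convertase, stood at 83.4 and 480 CPM, with 0 in the Lgr5-positive library.

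Hormone genes were spread unevenly over wells. Tac1, the substance P precursor of enterochromaffin cells, came to 593 and 4425 CPM in the Reg4-positive libraries, against 1.87 CPM (2 counts) in the Lgr5-positive library. It had counts in 7 of 75 and 70 of 78 Reg4-positive wells, against 2 of 74 Lgr5-positive wells. Tph1, the serotonin-synthesis enzyme, stood at 195 and 2144 CPM, against 2.80 CPM. Cck, a hormone of I cells, stood at 624 and 1289 CPM, with 0 in the Lgr5-positive library, but 1 well gave 276 of its 284 counts in replicate 1 and 3 wells gave 596 of 631 in replicate 2. Ghrl, ghrelin, likewise drew 585 of its 591 counts in replicate 1 from 1 well, where it stood at 1298 CPM, against 476 CPM in replicate 2 and 0 in the Lgr5-positive library. In replicate 2, 3 wells gave 218 of its 233 counts. Gcg and Nts had no count in replicate 1 and 199 and 261 counts in replicate 2, of which 1 well gave 190 and 248. Levels of Cck, Ghrl, Gcg and Nts thus rest mostly on at most 3 wells per replicate. Of 9 tested hormone and amine genes 6 were past 2-fold above and 0 below. Of the 9, 4 had no count in the Lgr5-positive library and could not lie below it.

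Endocrine transcription factors were past 2-fold above for 12 of 18 tested and below in 0 (median log2 ratio 2.82). Of the 18, 4 had no count in the Lgr5-positive library and could not lie below it. With the 3 large wells kept, 11 were past 2-fold above. Neurod1, a late endocrine differentiation factor, reached 48.3 and 323 CPM in the Reg4-positive replicates, against 1.87 CPM. Fev, the factor of serotonin cells, stood at 59.3 and 498 CPM, against 3.74 CPM (log2 6.19 ± 2.64 SE, adjusted p = 0.326). Neurog3, the early endocrine factor, did not separate the sorts, with 0 and 40.8 CPM in the Reg4-positive libraries, against 7.48 CPM in the Lgr5-positive library. Mlxipl, a glucose-responsive factor on the list, stood at 94.4 and 180 CPM, against 194 CPM. Foxa1, a pioneer factor of gut epithelium, stood at 116 and 114 CPM, against 40.2 CPM.

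**Figure D3:**
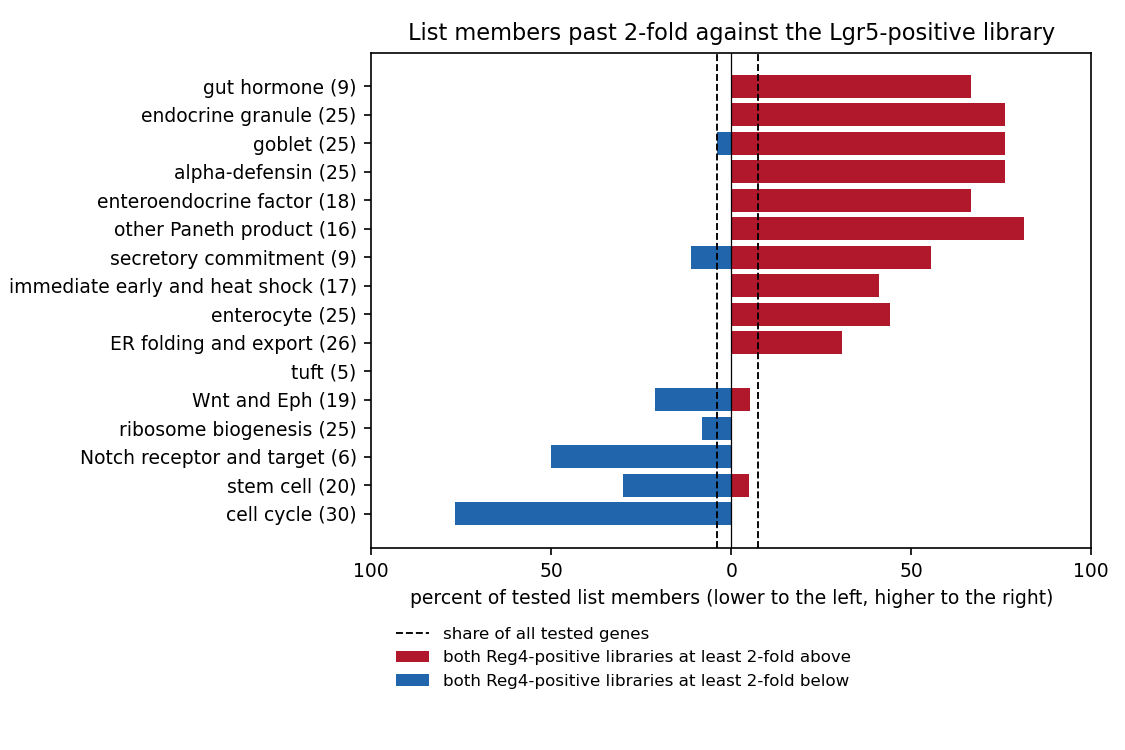
Percent of tested members of each gene list (number tested in brackets) with both Reg4-positive libraries at least 2-fold above (right) or below (left) the Lgr5-positive library. Dashed lines mark the share of all tested genes, 7.54% above and 4.05% below, and 23 of 30 cell cycle genes reach the left side (1 of 30 with the 3 large wells kept).

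Among 9 tested genes of secretory commitment 5 were past 2-fold above and 1 below, or 4 and 1 with the large wells kept. Atoh1 came to 169 and 44.9 CPM in the Reg4-positive libraries, against 2.80 CPM (3 counts) in the Lgr5-positive library. Cbfa2t3, a corepressor of the ETO family, stood at 136 and 106 CPM, against 7.48 CPM (log2 4.00 ± 0.48 SE), and was among the 13 genes with adjusted p = 0.190. Dll1, a Notch ligand, stood at 178 and 65.3 CPM, against 23.4 CPM, and Xbp1, a driver of the secretory apparatus, at 367 and 394 CPM, against 130 CPM. Hes6 was level, at 110 and 131 CPM, against 122 CPM. Jag2, another ligand, was at 0 in the Reg4-positive libraries and at 13.1 CPM (14 counts) in the Lgr5-positive one. Above the Lgr5-positive library in both Reg4-positive libraries at any size lay 6 of 9, and below it in both lay 1. These counts have no share of all tested genes beside them.

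Hes1 (chr16:30064384-30067796, plus strand), the Notch target that represses Atoh1, came to 65.9 and 96.0 CPM in the Reg4-positive libraries, against 290 CPM in the Lgr5-positive library (log2 -1.84 ± 0.45 SE, adjusted p = 0.240). Its counts lay in 17 of 75 and 21 of 78 Reg4-positive wells, against 58 of 74 Lgr5-positive wells, or in 4 and 5, against 25, after thinning. Notch1, a receptor of this pathway, stood at 15.4 and 24.5 CPM, against 54.2 CPM, and Nrarp, a feedback inhibitor, at 13.2 and 4.08 CPM, against 36.5 CPM. These 3 of 6 tested Notch genes were past 2-fold below and 1 of 6 was above in both Reg4-positive libraries. Past 2-fold below were 0 of 6 with the 3 large wells kept and 1 of 6 after thinning.

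Stem cell genes were lower in part. Of 20 tested members 6 were past 2-fold below and 1 above (median log2 ratio -0.91). Ascl2, a stem cell transcription factor driven by Wnt, came to 22.0 and 26.5 CPM in the Reg4-positive libraries, against 133 CPM in the Lgr5-positive library, with counts in 4 of 75 and 6 of 78 Reg4-positive wells, against 47 of 74. Those numbers of wells are without thinning, and the deeper Lgr5-positive wells show a low gene more often at the same level. Olfm4 stood at 4.39 and 8.17 CPM, against 37.4 CPM, and Aqp4, a water channel, at 37.3 and 24.5 CPM, against 143 CPM. Smoc2, a matricellular protein of stem cells, stood at 259 and 159 CPM, against 395 CPM. Slc12a2, an ion cotransporter, stood at 547 and 280 CPM, against 645 CPM. Hopx, proposed elsewhere as a marker of reserve stem cells, came to 358 and 825 CPM in the Reg4-positive libraries, against 312 CPM. Prom1 was the 1 member past 2-fold above, at 228 and 212 CPM, against 84.1 CPM. With the 3 large wells kept, 4 of 20 were past 2-fold below. With replicate 2 as the only Reg4-positive library 14 of 20 were, and with replicate 1 alone 7 of 20. The list holds Lgr5, whose level describes the sort and is no finding. It is among the 14 and enters the 20 and the median, but is not among the 6.

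Wnt target and Eph genes did not all lie on one side. Of 19 tested 4 were past 2-fold below and 1 above (median log2 ratio -0.47). Axin2, a Wnt feedback inhibitor, came to 87.8 and 40.8 CPM in the Reg4-positive libraries, against 203 CPM, and Rnf43, which removes Wnt receptors, to 61.5 and 42.9 CPM, against 129 CPM. Sox9, a Wnt target shared by stem and Paneth cells, stood at 382 and 292 CPM, against 248.7 CPM, and Ccnd2, a G1 cyclin, at 250 and 317 CPM, against 344 CPM. Bambi, a pseudoreceptor of the TGF-beta family, was the member past 2-fold above, at 37.3 and 57.2 CPM, against 0.935 CPM (1 count). Ephb2 and Ephb3, receptors that position cells along the crypt, came to 59.3 and 63.3 CPM and to 108 and 49.0 CPM in the Reg4-positive libraries, against 75.7 and 66.4 CPM in the Lgr5-positive library. With the large wells kept 2 of 19 were past 2-fold below, with replicate 2 alone 7 of 19 and with replicate 1 alone 5 of 19.

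Cell cycle genes were past 2-fold below in 23 of 30 tested and above in 0 (median log2 ratio -1.44), against 4.05% and 7.54% of all tested genes. Lower in both Reg4-positive libraries at any size were 30 of 30, a count with no share of all tested genes beside it. Stmn1, a tubulin regulator of dividing cells, came to 259 and 243 CPM in the Reg4-positive libraries, against 636 CPM in the Lgr5-positive library (log2 -1.34 ± 0.38 SE, adjusted p = 0.247). Hmgb2 stood at 250 and 157 CPM, against 658 CPM, and Top2a, the replication topoisomerase, at 149 and 127 CPM, against 396 CPM. Gins2, a part of the replicative helicase, stood at 19.8 and 16.3 CPM, against 103 CPM (log2 -2.51 ± 0.38 SE, adjusted p = 0.201). Cdc20 and Ccnb2, whose promoters are printed above, came to 24.2 and 16.3 CPM and to 22.0 and 28.6 CPM in the Reg4-positive libraries, against 107 and 121 CPM in the Lgr5-positive library. The count of 23 rests on leaving out the large wells. With the 3 wells above 100000 counts kept, 1 of 30 was past 2-fold below. Cell cycle genes held 0.522%, 0.743% and 0.639% of counts in those 3 wells, against 0.161% over the kept wells of their replicate. By wells, the median share was 0.0344% and 0.0576% in Reg4-positive replicates, against 0.480% in the Lgr5-positive library, and the highest wells reached 1.30% and 1.30%, against 1.29%.

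Of 25 tested ribosome biogenesis genes only 2 were past 2-fold below and 0 above (median log2 ratio -0.73), against 4.05% and 7.54% of all tested genes. Past 2-fold below were 0 with the large wells kept and 9 with scaling by total counts. With replicate 2 as the only Reg4-positive library 10 were, and with replicate 1 alone 4. In both Reg4-positive libraries 22 of 25 lay below the Lgr5-positive library at any size, a count with no share of all tested genes beside it. Ncl, nucleolin, came to 490 and 412 CPM in the Reg4-positive libraries, against 688 CPM. Npm1, a nucleolar chaperone, stood at 777 and 700 CPM, against 1392 CPM. Of 26 tested ER folding and export genes 8 were past 2-fold above and 0 below (median log2 ratio 0.99). Past 2-fold above were 2 with the large wells kept or with scaling by total counts, and 13 with replicate 1 alone. Above the Lgr5-positive library in both Reg4-positive libraries at any size lay 22 of 26, again with no share of all tested genes beside it. Hspa5, the main ER chaperone, stood at 555 and 580 CPM, against 283 CPM. P4hb, a disulfide isomerase, came to 1111 and 872 CPM in the Reg4-positive libraries, against 358 CPM, and Atf6, a sensor of unfolded protein, to 134 and 555 CPM, against 21.5 CPM.

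Immediate early genes were highest in Reg4-positive replicate 1. Fos (chr12:85473890-85477273, plus strand), a stimulus-induced transcription factor, stood at 1159 and 268 CPM, against 17.8 CPM in the Lgr5-positive library (log2 5.32 ± 1.13 SE, adjusted p = 0.224). Fos counts lay in 52 of 75 and 39 of 78 Reg4-positive wells, against 11 of 74. Egr1 stood at 419 and 93.9 CPM, against 36.5 CPM. Hspa8, a constitutive heat shock protein, stood at 1225 and 1670 CPM, against 1727 CPM. Of 17 tested members of the immediate early and heat shock list 7 were past 2-fold above, or 13 with replicate 1 as the only Reg4-positive library. With the large wells kept, 6 were past 2-fold above. The whole list held 0.469% and 0.268% of counts in Reg4-positive replicates 1 and 2, against 0.281% in the Lgr5-positive library. In the median well it held 0.361% and 0.255%, against 0.281%. As a share of counts the list was thus higher in replicate 1 only. Handling of the cells during dissociation and sorting was not tested.

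Enterocyte genes were past 2-fold above in 11 of 25 tested (median log2 ratio 1.34), or 7 of 25 after thinning. Of the 25, 5 had no count in the Lgr5-positive library and could not lie below it. Part of these sums came from few wells. Fabp1 (chr6:71199827-71205023, plus strand), the fatty acid carrier of enterocytes, came to 628 and 1329 CPM in the Reg4-positive libraries, with 0 in 74 Lgr5-positive wells. One well gave 156 of its 286 counts in replicate 1 and 540 of 651 in replicate 2. The whole list held 0.341% and 0.622% of counts in Reg4-positive libraries, against 0.206% in the Lgr5-positive library. In the median well it held less, 0.0912% and 0.165%, against 0.198%, so the direction of the summed share and that of the median well differ.

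Markers of other cells were few, apart from Vim. Tuft genes summed to 6 and 9 counts in Reg4-positive libraries, against 10 in the Lgr5-positive library, immune genes to 1 and 0, against 2, and MHC class II genes to 1 and 11, against 0. Of the tuft genes Plcg2, a phospholipase, stood at 2.20 and 8.17 CPM, against 6.54 CPM, and Hpgds, a prostaglandin synthase, at 2.20 and 0 CPM, against 0.935 CPM. Of 13 stromal genes Vim, an intermediate filament, carried the list, at 54.9 and 688 CPM, against 3.74 CPM, with counts in 4 of 75 and 50 of 78 Reg4-positive wells, against 3 of 74. Col3a1 had no count in any of these 3 libraries.

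The wells of each sort were mixed. Wells were divided into ranges, not cell types, by the share of their counts from the Paneth lists or the 3 endocrine lists, with a bound of 2% chosen after the shares were seen. In Reg4-positive replicate 1, 59 of 75 wells reached 2% of Paneth genes and 7 reached 2% of endocrine genes. In Reg4-positive replicate 2, 27 of 78 wells reached it for Paneth genes and 50 for endocrine genes, with 4 wells in both. In the Lgr5-positive library 4 of 74 wells reached it for Paneth genes and 1 for endocrine genes. Replicate 1 was thus mostly Paneth-gene wells and replicate 2 mostly endocrine-gene wells. Thinning every well to 1500 counts gave 59 and 28 Paneth-gene wells, against 4, and 7 and 50 endocrine-gene wells, against 1. Between 1% and 4% lay 4 and 12 Reg4-positive wells and 0 Lgr5-positive wells for Paneth genes, and 0 and 3, against 0, for endocrine genes.

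Wells with endocrine genes alone still held a median of 0.350% and 0.609% Paneth-gene counts in the Reg4-positive replicates. Wells of the same replicates below both bounds held 0.295% and 0.334%, and Lgr5-positive wells below both bounds 0.0556%. A level above that of the Lgr5-positive wells was thus not particular to endocrine-gene wells. The part of free RNA in these levels was not tested. Reg4 counts stood apart between the 2 kinds of well, with no test made. Wells with endocrine genes alone held a median of 34 and 137 Reg4 counts in Reg4-positive replicates 1 and 2, and the 1 such Lgr5-positive well held 122. Wells with Paneth genes alone held a median of 3 and 13 Reg4 counts, and the 4 such Lgr5-positive wells a median of 26. Goblet genes reached 2% of counts in 39 of 75 and 18 of 78 Reg4-positive wells, against 4 of 74 Lgr5-positive wells, and all of these wells were also Paneth-gene wells. This depends on the bound: between 1% and 4% of goblet genes lay 34 and 17 Reg4-positive wells, against 1 Lgr5-positive well. The well highest in goblet genes, in Reg4-positive replicate 1, held 10.8% of them and 2.61% of Paneth genes. Wells below 2% for both numbered 9 and 5 in Reg4-positive libraries, against 69 in the Lgr5-positive library. In them cell cycle genes held a median of 0.360% and 0.568% of counts, against 0.495%, and Reg4 was counted in 1 of 9 and 5 of 5 Reg4-positive wells, against 13 of 69. These Reg4-positive wells were mixed. Wells of replicate 1 with 8.02% and 8.21% enterocyte genes held 0.0331% and 0.0136% cell cycle genes. Wells of replicate 2 with 4.99% and 4.79% enterocyte genes held 0.365% and 0.00830%. The highest Lgr5-positive well held 0.522% enterocyte genes.

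**Figure D4:**
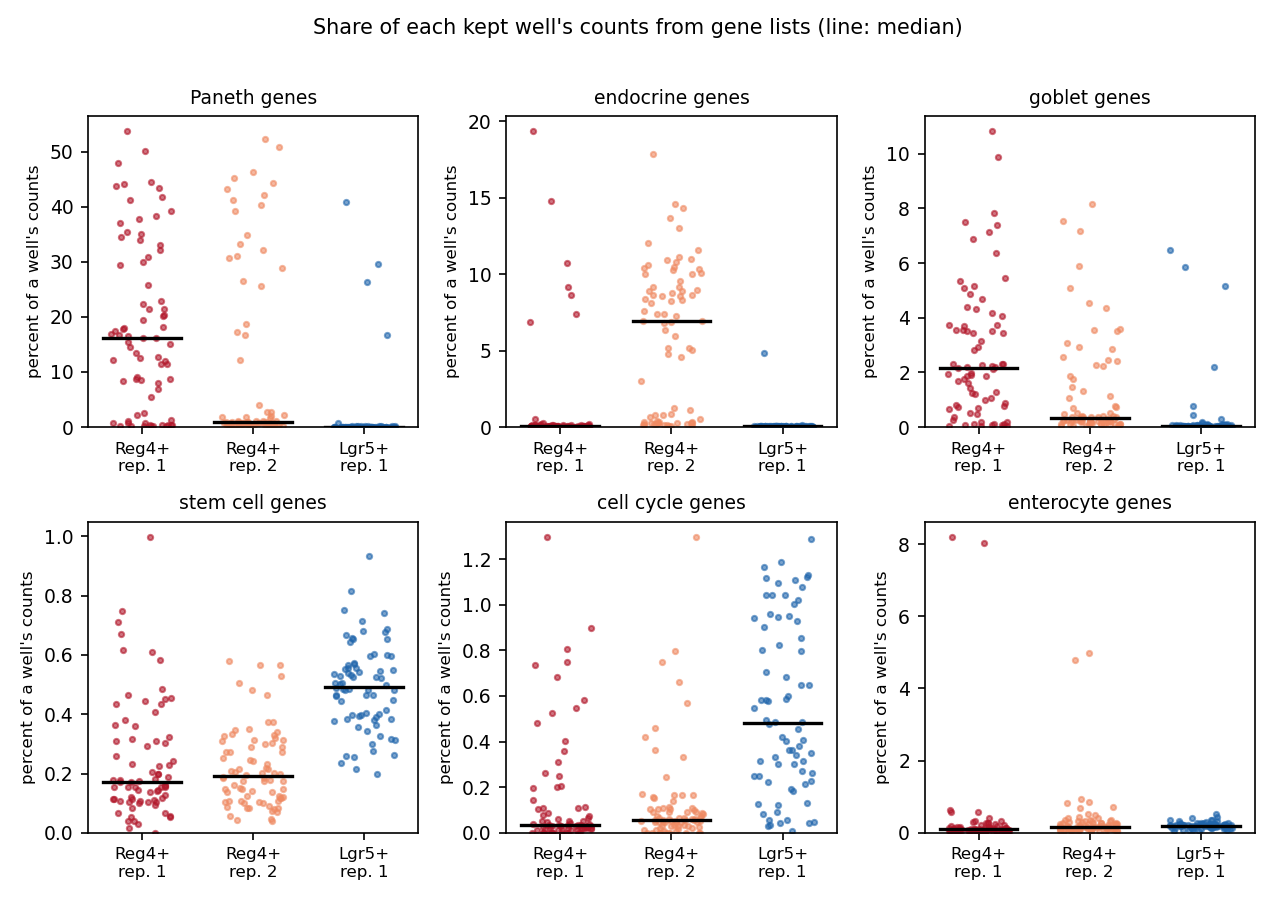
Share of counts of each kept well from 6 sets of genes, by library, with 1 point per well and a line at the median. Median Paneth shares are 16.2% and 0.851% in Reg4-positive replicates, against 0.0571% in the Lgr5-positive library, and median endocrine shares are 0.0679% and 6.94%, against 0.0415%.

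**Figure D5:**
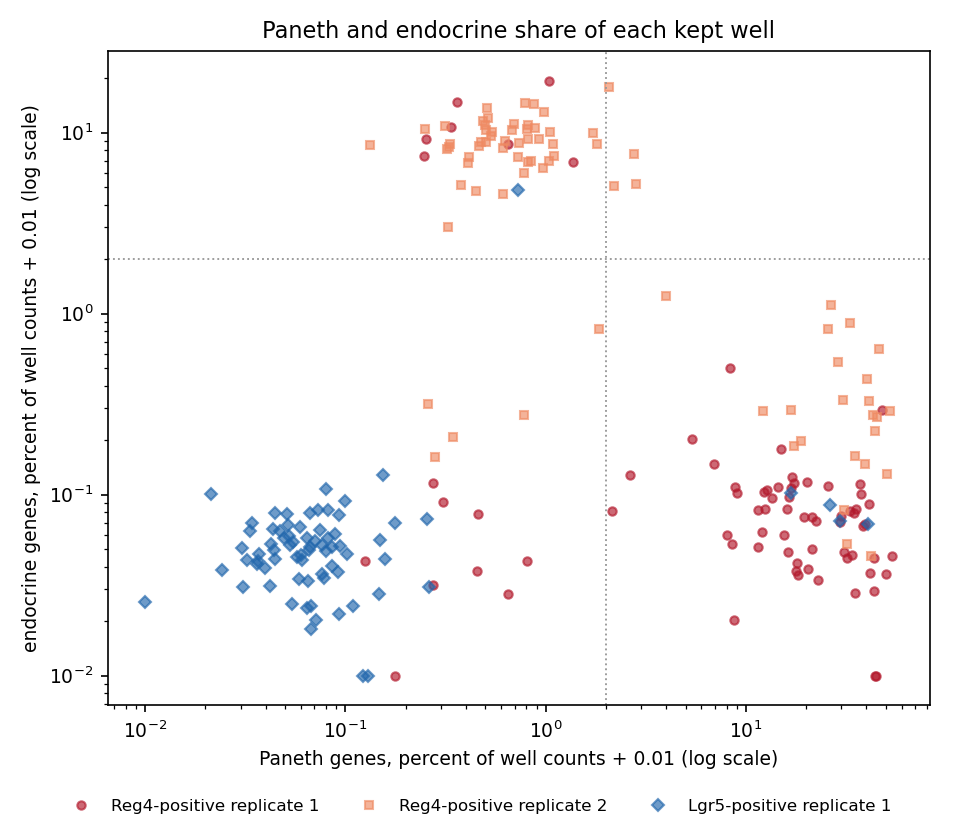
Endocrine against Paneth share of each kept well, in percent of counts + 0.01 on log axes, with dotted lines at 2%. Most Reg4-positive wells pass 1 of the lines, 4 wells of replicate 2 pass both lines, and 69 of 74 Lgr5-positive wells lie below both.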

How the data were processed

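Wells of 2 Reg4-positive and 1 Lgr5-positive organoid libraries were analysed, with 2 whole organoid libraries in the fit. The values deposited by the authors are estimated counts (unit: expected count) of molecules by gene and well. From the values alone, undoing a collision correction for 256 barcodes returned whole barcode numbers, at a tolerance of 1e-06, for 3897295 of 3897321 nonzero entries; the other 26 sat at its ceiling. The submitters' processing notes name BWA 0.6.2-r126 and the build mm10 (GRCm38). For counter, filters and annotation, nothing is given in the sources used here. Values were rounded to whole numbers (largest move 0.495). The 92 spike-in rows and the dsRed row stayed out of totals and tests. Another 192 columns in 2 tables matched no sample and were not used.

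Kept wells were summed per replicate and tested with edgeR 4.0.16 (quasi-likelihood, TMM, filterByExpr, Benjamini-Hochberg rate 0.05) in R 4.3.3; DESeq2 1.42.0 was an alternative. Standard errors are the log2 fold change divided by the square root of F. The test was also run on simulated data drawn with the same spread for every gene, so that run does not show how it performs on these data. Coordinates are from GENCODE on GRCm38. Exact intervals, and the limit allowed by a count of 0 (3 counts over the group's libraries), cover counting error only. The members and gene lists were chosen with earlier results of these data known. Named by rule were Reg4, Lgr5, the called genes with the largest changes (there were none) and, per list, the 2 tested members highest in mean level; the others were named after their values were seen. Not every gene that the rule names is reported here.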

Additional observations from a re-analysis of the deposited data

Results flagged for a closer look

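The dsRed reporter has a row of its own in the table of Reg4-positive replicate 1, outside the comparisons above, and its signal there was 63 counts. They lay in 31 of 75 kept wells (41.3%, exact 95% interval 30.1% to 53.3%), with at most 4 counts in a well. Reg4 was also counted in 30 of these 31 wells, and another 32 wells had Reg4 counts without dsRed. The tables of Reg4-positive replicate 2 and of the Lgr5-positive library were read without such a row, so no level can be set beside it.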

How the results depend on the processing

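Against 0 called genes in the main test, 5 of the alternatives called none: wells above 100000 counts kept, wells of at least 3000 counts, DESeq2 size factors, scaling by total counts, and wells 49 to 96 of a whole organoid plate left out. Leaving out plate I of Reg4-positive replicate 2, chosen after seeing the data, called 0 too. Thinning to 1500 counts called 2 genes higher among 3789 tested. The DESeq2 test called 162 higher and 8 lower, with 4582 adjusted p-values not given. No filter on low counts gave 689 and 193 of 15663, and fitting the 3 sorted libraries alone 265 and 26 of 8617. Leaving out 1 replicate at a time gave 69 to 380 higher and 5 to 49 lower. The cause was not tested.

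The 2-fold counts of 775 above and 416 below, with their alternatives chosen after seeing the data, became 1223 and 1140 with thinning and 512 and 908 with scaling by total counts. They were 202 below with large wells kept. With 1 Reg4-positive replicate, or plate I of replicate 2, left out they ranged over 748 to 1604 above and 406 to 1115 below. Scaling by total counts moved the median log2 change of all genes to -0.31, against 0.07 with TMM.

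Among named genes, signs turned for 4, none past the threshold in the main test. The Hes6 log2 fold change was 0.49 thinned and -0.13 to 0.10 with 1 replicate left out. The Plcg2 log2 fold change was 0.082 with large wells kept and -1.52 to 0.31 with 1 left out. The Hpgds log2 fold change was -0.45 with large wells kept, -0.18 with total counts and -3.59 to 1.18 with 1 left out. The Col3a1 log2 fold change was 1.19 in DESeq2. Shares of wells moved outside their interval without thinning in 86 of 108 cases. No paired analysis was possible because the groups compared share only replicate number 1. With 1 Lgr5-positive library its own spread is unknown, and at a median of 5148 and 5650 counts per Reg4-positive well a count of 0 in a well does not show absence.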

Other observations

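Some genes outside the lists stood far from the Lgr5-positive library, and they are given as values chosen after they were seen. Afp, the fetal serum protein, reached 836 and 8752 CPM in the Reg4-positive libraries, against 1.87 CPM (2 counts), with counts in 8 of 75 and 69 of 78 Reg4-positive wells, against 2 of 74. Alb, serum albumin, stood at 79.0 and 623 CPM, with 0 in the Lgr5-positive library. Nptx2, a secreted pentraxin, stood at 79.0 and 958 CPM, and Pappa2, a protease of IGF-binding proteins, at 68.1 and 566 CPM, both with 0 in the Lgr5-positive library. All 4 were higher in Reg4-positive replicate 2 than in replicate 1.

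Reg1, a lectin of the Reg family, reached 395 and 888 CPM in the Reg4-positive libraries and was at 0 in the Lgr5-positive library, and 1 well gave 153 of 180 counts in replicate 1 and 304 of 435 in replicate 2. Hist1h2ao, a replication-dependent histone, reached 2.20 and 12.3 CPM in the Reg4-positive libraries, against 198 CPM in the Lgr5-positive library, where 29 of 74 wells had counts. Its adjusted p in edgeR was 0.272. The 2 whole organoid libraries stood at 5.84 and 135 CPM, so libraries of the same kind also lay far apart for this gene.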
